A study of Papio papio with 23 samples.

Results

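FDXR is the gene for ferredoxin reductase, and the array carried it with 1 probe. It was found by its gene name in the scanner files, and a search by transcript accession gave the same probe. It is 1 of 21130 genes, counted by the array's gene names, that could be tested in this study. Of these names 14696 were gene symbols, and shares of all genes below are over all 21130. FDXR was chosen by its measured difference from unirradiated blood: its level was lower after irradiation in these samples, while in human blood it is known as a gene that radiation induces. Those differences are therefore given as a description, with no test.

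The study measured RNA from peripheral whole blood of adult male baboons (Papio papio) on 1-colour Agilent arrays designed for human genes, 23 arrays in all, with 1 array per sample. The H0 group held 5 healthy baboons sampled before irradiation, with no exposure. The H1-2 group held 4 baboons and the H2-3 group 5 baboons, each sampled on day 1 and again on day 2 after irradiation. The group names give how severe a haematological acute radiation syndrome (HARS), a loss of blood cells after exposure, each animal went on to develop, H2-3 being the more severe. Animals were anaesthetised and received gamma rays from a cobalt source to the total body or to part of it, at an equivalent whole-body dose of 2.5 or 5 Gy. Dose and field are given for the study and not for single animals, so neither was analysed here. The mean age in the study was 8.1 ± 3.3 years. The labels do not say whether the H0 baboons were among the animals later irradiated.

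Ferredoxin reductase is a flavoprotein of the mitochondrial matrix. It takes electrons from NADPH and hands them to the ferredoxins FDX1 and FDX2, small iron-sulfur proteins that pass them on to mitochondrial cytochromes P450 and to the machinery that builds iron-sulfur clusters. FDXR is a transcriptional target of p53, the factor that DNA damage activates, and it stands beside CDKN1A, DDB2, AEN and PCNA in many panels of blood genes for estimating radiation exposure in humans.

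The probe is 60 bases long and lies on human chromosome 17, on the minus strand of build hg19, at chr17:72858650-72858709. Every FDXR value below rests on this 1 human sequence hybridised with baboon RNA, so its first 30 bases are shown.

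FDXR probe, first 30 bases: cgatctaaccccttacccatctctctactg

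The array's annotation ties the probe to 2 RefSeq transcripts of FDXR. Its GC content was 55%, against a median of 45% over the probes kept. How it matches the baboon transcript, and whether it lies in coding sequence or in an untranslated region, was not analysed here. Its spot stood well above background on 23 of 23 arrays and was saturated on none. Its mean spot signal ran from 365 to 1492 against a local background of 21 to 36.5, a ratio of 11.1 to 54.2. The FDXR probe thus gave a clear signal on every array, and its lower values were well within the range the scanner could read. Whether baboon FDXR RNA alone gave this signal was not tested.

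FDXR levels are given as log2 of the processed signal minus the array's 75th percentile. In the 5 H0 baboons the levels were 3.57, 2.77, 2.70, 3.53 and 3.38, a mean of 3.19 ± 0.42 (SD, n = 5). Baboons 2 and 3 of H0 stood clearly below the other 3, so unirradiated blood was itself widely spread. In H1-2 baboons on day 1 the levels were 1.76, 2.65, 2.47 and 2.66 (mean 2.39 ± 0.42, n = 4). The H2-3 baboons on day 1 had 1.86, 2.17, 1.70, 2.62 and 2.63 (mean 2.20 ± 0.43, n = 5). All 9 irradiated baboons on day 1 lay below the lowest H0 array, although the highest of them, at 2.66, was close to the lowest H0 value of 2.70.

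On day 2 the H1-2 baboons had FDXR levels of 2.55, 2.88, 3.28 and 3.19 (mean 2.98 ± 0.33, n = 4). The H2-3 baboons on day 2 had 2.29, 2.70, 2.52, 2.96 and 2.84 (mean 2.66 ± 0.26, n = 5). Both day 2 groups overlapped with H0. Before scaling, the mean processed signal of FDXR was 959 ± 258 in H0, 590 ± 145 in H1-2 on day 1, 940 ± 36.7 in H1-2 on day 2, 517 ± 201 in H2-3 on day 1 and 715 ± 152 in H2-3 on day 2. From high to low the group means ran H0, H1-2 on day 2, H2-3 on day 2, H1-2 on day 1 and H2-3 on day 1 on both scales. On the scaled log2 levels each group overlapped with its neighbour in that order. Before scaling the day 2 groups were apart by a narrow margin, with a lowest signal of 901 in H1-2 and a highest of 893 in H2-3. How many of all genes were apart in this way before scaling was not counted, so nothing is read from it.

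**Figure D1:**
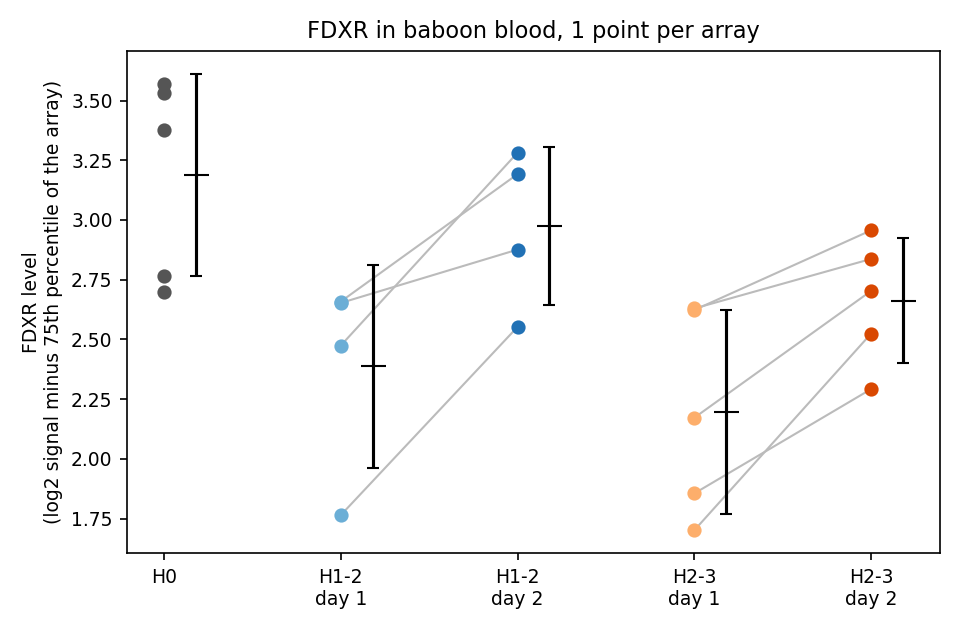
FDXR level on each of the 23 arrays (log2 signal minus the array's 75th percentile), by group, with the mean and SD as bars and lines joining the 2 days of a baboon. All day 1 points lie below the H0 points, at or under 2.66 against 2.70 or more, and every line rises from day 1 to day 2.

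Against H0, FDXR differed by -0.80 ± 0.26 (SE) on the log2 scale in H1-2 on day 1, a 1.74-fold lower level, and by -0.99 ± 0.24 in H2-3 on day 1, a 1.99-fold lower level. These values were used to choose the gene and carry no test. Differences of this size were common on these arrays: 7.77% of all genes were as low or lower in H1-2 on day 1, and 9.11% in H2-3. Every array lay below every H0 array for 5.4% of genes in H1-2 on day 1 and for 9.27% in H2-3 on day 1. FDXR was among them in both groups, as the choice of the gene would have it.

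On day 2 the difference from H0 was -0.21 ± 0.26 (SE) in H1-2, smaller than its standard error, and -0.53 ± 0.24 in H2-3, a 1.44-fold lower level. Of all genes, 30.6% were as low or lower in H1-2 and 20.4% in H2-3. All 4 comparisons share the same 5 H0 arrays, so they are not independent of each other, and the 2 H0 baboons with low FDXR bear on each. Without baboon 3 of H0, the lowest, the day 1 differences were -0.92 and -1.12. Without baboon 1 of H0, the highest, they were -0.71 and -0.90. With any 1 array left out, irradiated arrays included, they ran from -0.92 to -0.59 in H1-2 and from -1.12 to -0.87 in H2-3. The small H1-2 difference on day 2 ran from -0.34 to -0.07 when 1 array at a time was left out, with the value nearest 0 coming without baboon 1 of H1-2 on day 2.

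Slide and scan day bear on the comparison with H0. The first 2 H0 baboons were scanned on one day, the other 3 together with all day 1 arrays, and all day 2 arrays on yet another day. With scan day as a block, the day 1 differences were -0.82 ± 0.30 (SE) in H1-2 and -1.01 ± 0.29 in H2-3. Only slide 3 held an H0 array beside an irradiated one, and the H2-3 array on it was lower by -1.52 in FDXR. With slide as a block, the differences rest on that link and became -1.42 in H1-2 and -1.52 in H2-3. Without the 2 arrays of slide 3 they were -0.76 and -0.86, so FDXR was lower on day 1 with and without it. For day 2, scan day and the difference from H0 cannot be told apart.

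FDXR was chosen for its fall against H0 and not for a difference between the categories, so this difference was tested. The irradiated arrays entered both the choice and the tests between categories, so these tests are not fully apart from the choice. On day 1, FDXR in H2-3 minus H1-2 was -0.19 ± 0.26 (SE), with a 95% interval of -0.73 to 0.34 (limma adjusted p = 1.00, exact permutation p = 0.5). On day 2 it was -0.31 ± 0.26, with an interval of -0.85 to 0.22 (limma adjusted p = 0.674, exact permutation p = 0.159). With both days of a baboon averaged, the level was 2.68 ± 0.36 (SD, n = 4) in H1-2 and 2.43 ± 0.34 (n = 5) in H2-3, a difference of -0.25 (exact permutation p = 0.286, two-sided). The mean of FDXR was thus lower in the animals with the more severe later syndrome on both days, and no test of that difference passed.

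The intervals reach down to -0.73 on day 1 and -0.85 on day 2, so a difference between the categories nearly as large as that between day 1 and H0 lies inside them. The data do not show that the categories had the same FDXR level. The exact tests ran over 126 arrangements of 9 baboons, so they cannot give a very small p. The 4 of them had an adjusted p of 0.5 each. limma passed 0 of 21130 genes between the categories on either day, with 1224 and 2062 genes at an unadjusted p under 0.05, so FDXR shared this outcome with every other gene. Slides that held both categories gave differences of -0.27 and 0.06 on day 1 and of -0.21 and -0.34 on day 2, each from 2 or 3 arrays a side. Slides of one day differed as well. On day 1 FDXR averaged 2.21 in H1-2 and 1.94 in H2-3 on slide 4, and 2.57 and 2.63 on slide 5. On day 2 the averages were 2.71 and 2.51 on slide 6, and 3.24 and 2.90 on slide 7. H1-2 baboons 1 and 2 were on slides 4 and 6, and baboons 3 and 4 on slides 5 and 7. Differences between these pairs of baboons cannot be told apart from differences between slides.

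The change from day 1 to day 2 was taken within each animal, by the baboon number in the titles. FDXR was higher on day 2 by 0.79, 0.22, 0.81 and 0.53 in the H1-2 baboons (mean 0.59 ± 0.27, SD) and by 0.44, 0.53, 0.82, 0.33 and 0.21 in the H2-3 baboons (mean 0.47 ± 0.23). It was higher in all 9 animals, as it was for 5.94% of all genes. The day 1 arrays that made FDXR low enough to be chosen also enter this change, so it is a description with no test. Day 1 and day 2 were scanned on separate days, and day and scan day cannot be told apart. The day change in H2-3 minus that in H1-2 was -0.12 ± 0.36 (SE), with a 95% interval of -0.88 to 0.63 (limma adjusted p = 1.00, exact permutation p = 0.492). This SE, interval and limma p come from the fit of group means, which does not pair the days of a baboon. With baboon as a block the SE was 0.23. The permutation test used the paired changes. The sign of the difference between the changes turned without baboon 1 of H1-2 on day 1, the lowest FDXR array of that group, when it was 0.09.

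Other genes that p53 is known to induce were mostly higher where FDXR was lower. A list of 37 such genes, without FDXR, had 34 that could be tested. Of the 34, 16 rose against H0 in H2-3 on day 1 and 2 fell, where 15% of all genes rose and 13.5% fell (limma, adjusted p under 0.05 over all genes). On day 2 in the same category, 12 rose and 0 fell, where 10.3% of all genes rose and 4.48% fell. In H1-2 on day 1, 3 rose and 1 fell, where 4.18% and 4.42% of all genes did. In H1-2 on day 2 limma passed no gene of 21130 (0%), with 2228 at an unadjusted p under 0.05.

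The median difference of the 34 genes was 0.67 in H2-3 on both days, beside a median over all genes of 0.14 on day 1 and -0.03 on day 2. In H1-2 it was 0.35 on day 1 and 0.38 on day 2, beside 0.09 and -0.01. FDXR lay near or at the bottom of this list in every comparison. On day 1, PLK2 was the only one of the 34 with a lower difference than FDXR, in both categories, and on day 2 none had. Both the choice of FDXR and the list were made with results of these data known, so its place in the list is a description.

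The 3 genes that rose in H1-2 on day 1 depended on the setting. Their number was 0 with slide or with scan day as a block, without the 2 arrays of slide 3, and without any one of H0 baboons 1, 4 or 5 or H1-2 baboons 1 or 2 on day 1. It was 1 with quantile normalization. The 16 that rose in H2-3 on day 1 became 2 with slide as a block, 11 with scan day as a block and 12 without slide 3. The scaling also moved the balance over all genes. With the percentile taken over probes detected on all arrays, 2051 genes rose and 3836 fell in H2-3 on day 1, against 3161 and 2846. For H2-3 on day 2 the split became 1567 and 2030, against 2176 and 947, and in H1-2 on day 1 it became 751 and 1569, against 883 and 933. Under that scaling 13 and 10 of the 34 p53 genes still rose in H2-3 on days 1 and 2, while 1 rose in H1-2 on day 1, and the median of all genes moved by up to 0.19.

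DDB2, which recognises damaged DNA in nucleotide excision repair, went the opposite way to FDXR on day 1 and was well above background on 23 of 23 arrays. Its levels in H0 were 3.24, 2.65, 2.81, 3.11 and 2.88. On day 1 they were 4.61, 4.84, 3.63 and 3.32 in H1-2 and 4.25, 4.29, 4.05, 4.39 and 4.98 in H2-3, all above H0. On day 2 DDB2 stood at 4.58, 5.41, 3.51 and 3.92 in H1-2 and at 4.12, 4.81, 5.52, 4.98 and 5.09 in H2-3. It rose by 1.16 ± 0.35 (SE) in H1-2 on day 1 (limma adjusted p = 0.0446), by 1.45 ± 0.33 in H2-3 on day 1 (adjusted p = 0.00277) and by 1.96 ± 0.33 in H2-3 on day 2 (adjusted p = 0.00507). A second DDB2 probe gave 0.99, 1.28 and 1.95. So on day 1, when FDXR was lowest, this fellow target was higher in every irradiated animal than in any H0 baboon, as was so for 4.99% of all genes in H1-2 and 9.57% in H2-3.

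CDKN1A, the cell cycle inhibitor, rose by 2.91 ± 0.52 in H2-3 on day 1 (limma adjusted p = 0.000456) and by 2.16 ± 0.52 on day 2 (adjusted p = 0.0135). Only 1 of its 5 H0 arrays was well above background, so these rest on a dim baseline. With the dim arrays set no lower than the dimmest signal well above background, the CDKN1A level was 7.02-fold higher on day 1 and 4.16-fold higher on day 2. AEN, a nuclease that p53 induces, rose by 1.65 ± 0.39 and 2.43 ± 0.39 in H2-3 on days 1 and 2, with 3 of 5 H0 arrays well above background and a second probe at 1.34 and 2.20. With dim arrays set in the same way, the AEN level was 2.45-fold and 4.21-fold higher. PCNA, the DNA polymerase clamp, was at 0.58 in H2-3 on day 1 (adjusted p = 0.126) and rose by 1.23 on day 2 (adjusted p = 0.00993). The cell cycle and survival genes PHLDA3 (0.94 and 0.80) and ZMAT3 (1.20 and 0.93) rose in H2-3 on both days.

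CCNG1, a p53-induced cyclin, rose by 1.02 in H2-3 on day 1 and was at 0.53 on day 2. MDM2, the ubiquitin ligase that restrains p53, rose by 0.64 in H2-3 on day 1 (limma adjusted p = 0.0441), and its 3 other probes gave 1.40 to 1.67. BTG2, an antiproliferative gene, and TRIM22, an antiviral ubiquitin ligase, rose in H1-2 on day 1 (0.95 and 1.15) and in H2-3 on both days (1.14 and 0.95 for BTG2, 1.51 and 1.34 for TRIM22). XPC, the partner of DDB2 in damage recognition, was at 0.51 and 0.62 in H2-3 and did not pass (adjusted p = 0.22 and 0.142). BAX, the pore former of apoptosis, was at 0.52 and 0.64 and did not pass either, and its second probe gave 0.19 and -0.22. TNFSF4, a TNF family ligand, was at 0.70 and 1.24 (adjusted p = 0.236 and 0.0535).

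The 2 list members that fell with FDXR were PLK2 and POLH. PLK2, a stress-induced polo-like kinase, fell by 1.46 ± 0.40 in H1-2 on day 1 (limma adjusted p = 0.0289) and by 1.93 ± 0.37 in H2-3 on day 1 (adjusted p = 0.000765), and stood at 0.10 and -0.35 on day 2. On day 1 PLK2 was well above background on 3 of 4 arrays in H1-2 and on 4 of 5 in H2-3. POLH, a polymerase that copies past damaged bases, fell by 0.95 ± 0.19 in H2-3 on day 1 (adjusted p = 0.00111) and was at -0.51 in H1-2 (adjusted p = 0.112). Like FDXR, both were nearer to H0 on day 2.

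**Figure D2:**
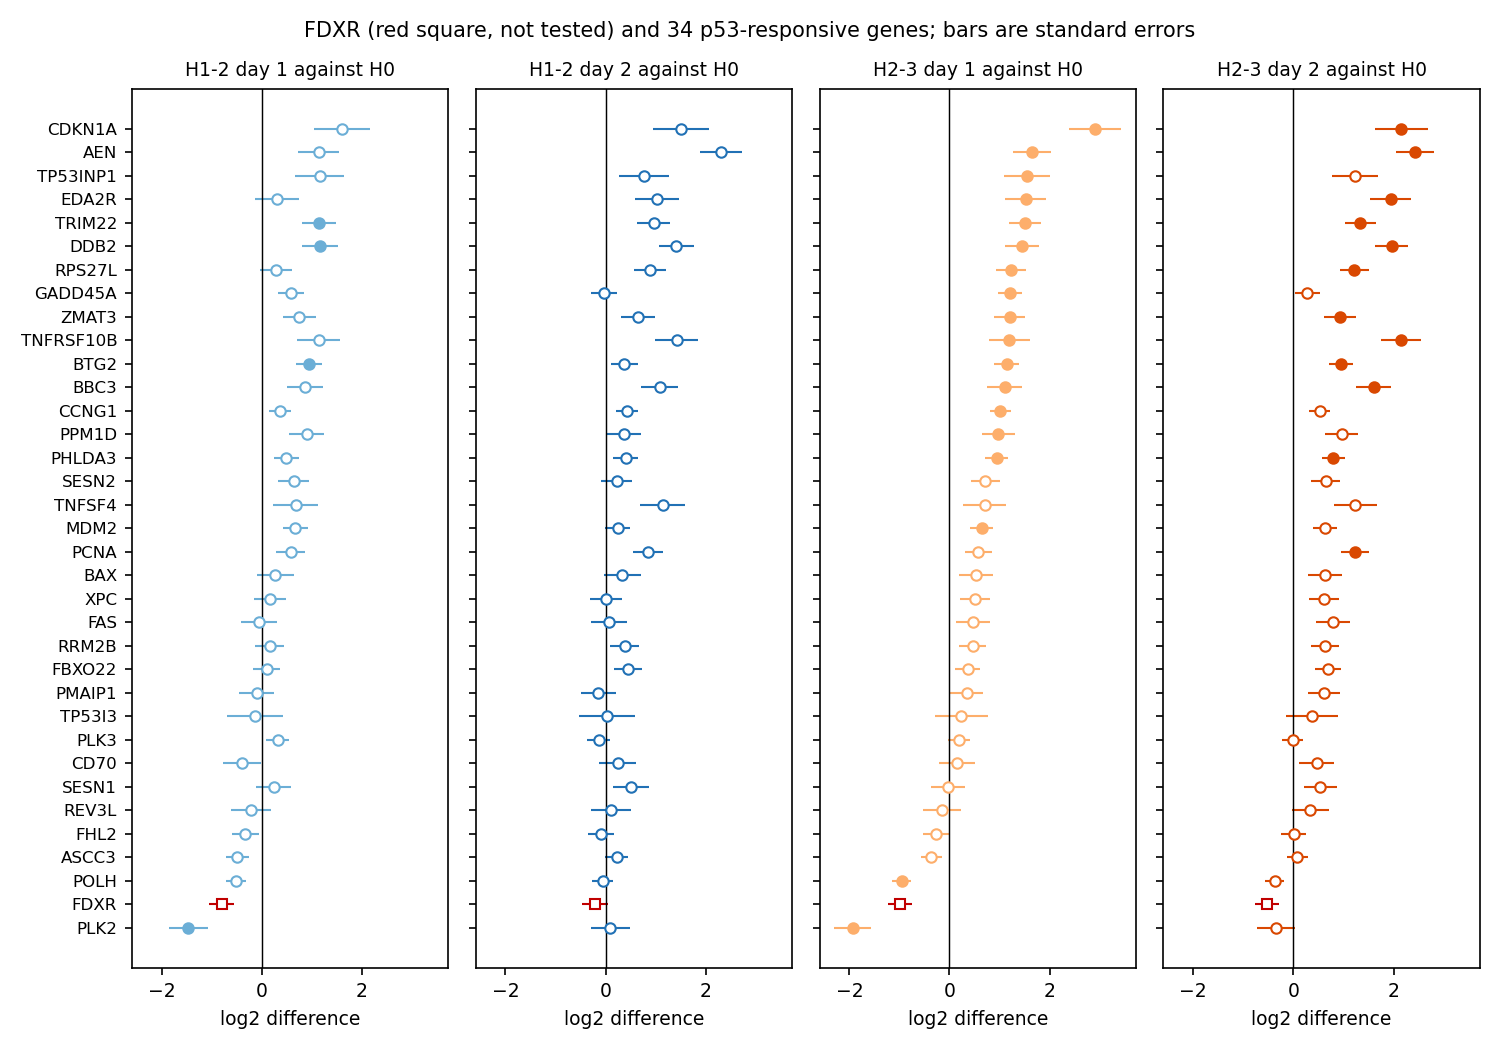
Log2 difference from H0 (x axis, bars are standard errors) of FDXR, a red square, and of 34 p53-responsive genes, in 4 panels by category and day. Filled circles passed limma's adjusted p under 0.05. FDXR sits at -0.80, -0.21, -0.99 and -0.53, while most of the other genes lie to the right of 0.

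Of the direct partners of FDXR, few were measured in blood. FDX1, the ferredoxin of steroid-producing enzymes, exceeded background clearly on 1 of 23 arrays only and was not tested. FDX2, the ferredoxin of iron-sulfur cluster assembly, is on the array under its older symbol FDX1L. FDX1L was at 0.06 in H1-2 and 0.19 in H2-3 on day 1 and at -0.40 and -0.65 on day 2, and passed in none (limma adjusted p = 0.102 to 0.923). Its second probe gave 0.00, 0.57, 0.28 and 0.18 in that order. The gap between FDXR and H0 on day 1 thus had no counterpart in the 1 ferredoxin that was measured.

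Of 12 genes listed as ferredoxins and mitochondrial P450 partners, 4 could be tested, and the adrenal and kidney P450 genes were mostly not above background. TSPO, an outer membrane protein that binds cholesterol, rose by 2.00 ± 0.36 in H1-2 on day 1 (limma adjusted p = 0.0141), by 2.21 ± 0.34 in H2-3 on day 1 (adjusted p = 0.00014) and by 1.53 ± 0.34 in H2-3 on day 2 (adjusted p = 0.00919). CYP11A1, the enzyme that cuts the cholesterol side chain, rose in H2-3 on day 2 by 0.90 (adjusted p = 0.0385). CYP27A1, a sterol hydroxylase, passed in none.

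Genes of iron-sulfur cluster assembly and iron balance went both ways. Of 32 tested, 4 rose and 5 fell in H2-3 on day 1, where 15% and 13.5% of all genes did, 4 rose and 0 fell in H2-3 on day 2 (10.3% and 4.48% of all genes), and 2 rose and 1 fell in H1-2 on day 1 (4.18% and 4.42%). These counts were near the shares over all genes. Their median difference was -0.01, -0.12 and -0.21 in that order, beside 0.14, -0.03 and 0.09 for all genes. FTH1, the ferritin heavy chain that stores iron, rose by 0.80 in H1-2 on day 1 (limma adjusted p = 0.0148) and by 0.98 and 0.88 in H2-3 on days 1 and 2. BOLA3, a cluster assembly factor, fell by 0.89 in H1-2 (adjusted p = 0.022) and by 1.01 in H2-3 on day 1 (adjusted p = 0.00132), and a second probe gave -0.56 and -0.52. COX15, which makes haem A, was at least 1.62-fold lower in H2-3 on day 1 (limma adjusted p = 0.00155), when it was not well above background on any array, and its second probe went the other way at 0.76. The assembly scaffold ISCU, at 0.16, and the sulfur donor NFS1, at -0.05, stayed short of the threshold in H2-3 on day 1. The iron sensor IREB2 (0.68) and the transferrin receptor TFRC (-0.71) did not pass there either.

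Other enzymes that carry flavin or pass electrons from NADPH were split as well. Of 17 tested, 5 rose and 5 fell in H2-3 on day 1 (15% and 13.5% of all genes), 4 rose and 1 fell on day 2 (10.3% and 4.48%), and 0 rose and 2 fell in H1-2 on day 1 (4.18% and 4.42%). MTRR, which reactivates methionine synthase, fell by 1.14 in H1-2 on day 1 (limma adjusted p = 0.0148) and by 1.55 and 1.16 in H2-3 on days 1 and 2. AIFM2, a lipid radical reductase, fell by 0.79 in H1-2 and 1.14 in H2-3 on day 1, but a second probe gave 0.46 and 0.44. Of 20 mitochondrial housekeeping genes, 3 rose and 5 fell in H2-3 on day 1 (15% and 13.5% of all genes). On day 2 in that category 2 rose and 0 fell (10.3% and 4.48%). In H1-2 on day 1, 0 rose and 2 fell (4.18% and 4.42%). The rises were near the shares over all genes. The falls on day 1 were above those shares, but in few genes and with no test. TFAM, which packages mitochondrial DNA, fell by 0.91 in H1-2 and 1.10 in H2-3 on day 1, close to the FDXR values, while SDHB, an iron-sulfur subunit of complex II, rose by 0.82 in H2-3.

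Genes with a probe within 200 kb of the FDXR probe did not share one direction. Of 13 tested in H2-3 on day 1, CD300LF (1.61) and TMEM104 (0.79) rose, and RAB37 (-0.66) and C17orf28 (-1.04, well above background on 2 of 5 arrays) fell. With 15% of all genes higher and 13.5% lower in that comparison, these counts are near the background. The nearest on either side, GRIN2C and FADS6, were at 0.58 and -0.57 and did not pass (limma adjusted p = 0.135 and 0.134). In H1-2 on day 1 none of the 13 passed.

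The blood samples also differed in the markers of their cell types. On day 1 in H2-3, 14 of 14 neutrophil markers and 9 of 11 monocyte markers rose against H0, while 13 of 14 NK cell, 10 of 13 B cell and 11 of 15 T cell markers fell and 2 T cell markers, CD4 and LCK, rose (a second LCK probe gave -2.76). Of all genes 15% rose and 13.5% fell there. In H1-2 on day 1, 10 of 14 neutrophil and 4 of 11 monocyte markers rose, 9 of 14 NK cell markers and 5 of 15 markers of T cells fell, 1 T cell marker, CD4, rose, and 0 of 13 B cell markers passed, beside 4.18% of all genes higher and 4.42% lower. On day 2 in H2-3, 6 neutrophil, 7 monocyte and 6 of 10 platelet markers rose and 11 B cell, 4 NK and 3 T cell markers fell, beside 10.3% of all genes higher and 4.48% lower. None of 12 erythroid markers passed in any comparison with H0. In whole blood, fewer cells of a type and less RNA per cell cannot be told apart.

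The mean level of the 14 neutrophil markers ran from 1.92 to 4.97 in H0, from 4.63 to 5.62 in H1-2 and from 5.24 to 5.89 in H2-3 on day 1, and from 2.89 to 4.57 and from 4.09 to 5.10 on day 2. The mean of the 15 T cell markers ran from 3.30 to 4.21 in H0, from 2.40 to 3.26 in H1-2 and from 1.20 to 3.00 in H2-3 on day 1, and from 3.17 to 3.94 and from 2.68 to 3.61 on day 2. By group, FDXR was thus lowest where neutrophil markers were highest and T cell markers lowest. Monocyte markers were likewise lowest in H0 (mean 5.02) and highest in H2-3 on day 1 (6.38). Their mean was higher in H2-3 on day 2 (6.05) than in H1-2 on day 1 (5.85), although FDXR was lower in H1-2 on day 1. Inside H0, baboons 2 and 3, with FDXR at 2.77 and 2.70, had neutrophil marker levels of 3.81 and 4.97 and T cell marker levels of 3.44 and 3.30, while the other 3, with FDXR at 3.38 or more, had neutrophil levels of 1.92 to 3.29 and T cell levels of 3.83 to 4.21. Other groups did not show this order throughout. In H2-3 on day 2 the highest FDXR, 2.96 in baboon 4, went with the highest neutrophil level, 5.10. In H2-3 on day 1 baboons 4 and 5, with FDXR at 2.62 and 2.63, had lower T cell levels (2.15 and 2.02) than baboons 2 and 3 (3.00 and 2.52), with FDXR at 2.17 and 1.70. The group means of the NK markers ran in the same order as those of the T cell markers, with values of 2.23 in H0, 0.34 and -0.30 in H1-2 and H2-3 on day 1, and 1.29 and 1.02 on day 2.

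B cell markers lined up with FDXR only in part. Like FDXR, their mean was highest in H0 (2.52), lowest in H2-3 on day 1 (-0.15) and at 1.96 in H1-2 on day 2. It was 1.89 in H1-2 on day 1 and 0.28 in H2-3 on day 2, while FDXR was at 2.39 and 2.66 there. In H0 their highest value, 2.90, was in the baboon with the lowest FDXR. Erythroid markers averaged 7.14 in H0 and 6.72 to 7.17 in the irradiated groups. The part of cell makeup in the FDXR differences was not tested.

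**Figure D3:**
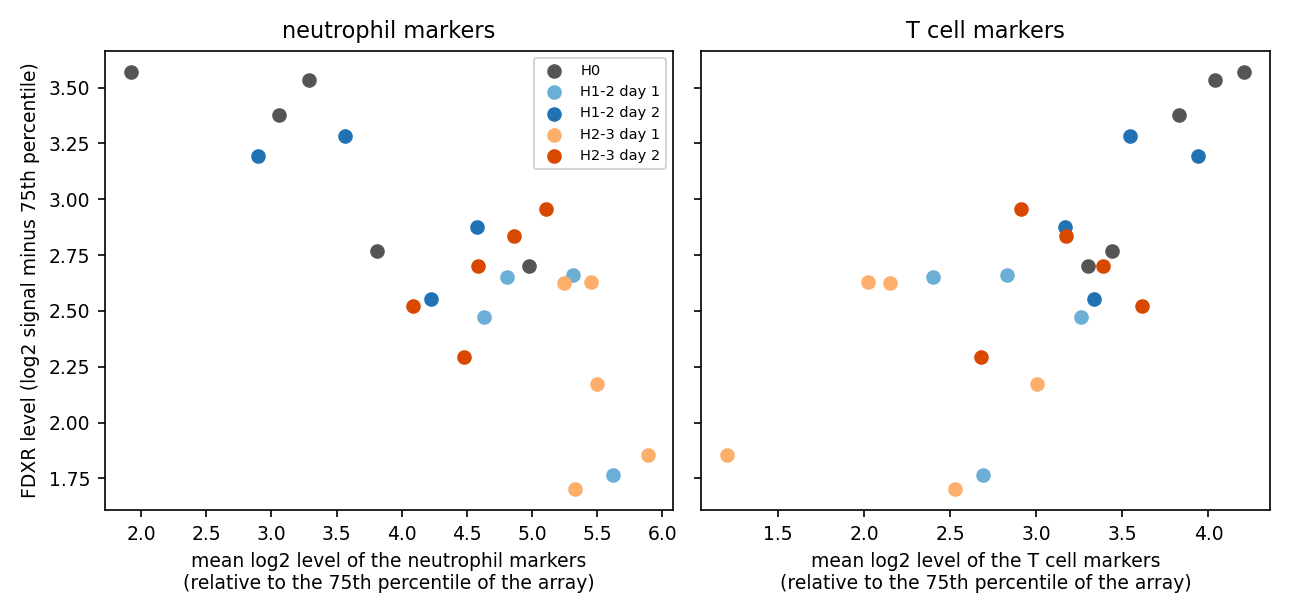
FDXR level (y axis, log2 relative to the array's 75th percentile) against the mean level of 14 neutrophil markers (left) and 15 T cell markers (right), 1 point per array, coloured by group. FDXR is low at the right of the neutrophil panel, with the H0 array of 4.97 among the lower H0 values, and at the left of the T cell panel.

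The genes whose levels followed FDXR most closely over the 23 arrays came from several processes. ALKBH2, which repairs alkylated bases, had the highest Pearson r at 0.90, followed by ACAD9, a complex I assembly factor, at 0.90, FAF1, a FAS-associated ubiquitin-binding protein, at 0.89, CCDC85B, RAN, the nuclear transport GTPase, SIVA1 and ELAC2, which trims tRNA ends, each at 0.88, and GAR1, of the H/ACA ribonucleoproteins, at 0.87. ALKBH2 fell against H0 by 0.77 in H1-2 and 0.92 in H2-3 on day 1 and by 0.55 in H2-3 on day 2 (limma adjusted p = 0.0176, 0.000558 and 0.0363), sizes close to those of FDXR. The lowest values of r belonged to OPN1MW (-0.91), an opsin gene, the inflammatory caspase CASP5 (-0.90), TM4SF19 (-0.89) and C8orf73 (-0.88). CASP5 rose by 1.36 in H1-2 and 1.50 in H2-3 on day 1.

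These values of r are descriptions over arrays that share their grouping, slides, scan days and blood makeup. With the group means subtracted, r was 0.77 for ALKBH2 and -0.82 for CASP5, a part of the same r that chose these genes. By that measure the highest were SSR4P1, a pseudogene, at 0.86, RBM19, of ribosome assembly, at 0.84, and the mitochondrial ribosomal gene MRPL10 and DGCR6L, both at 0.83.

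**Figure D4:**
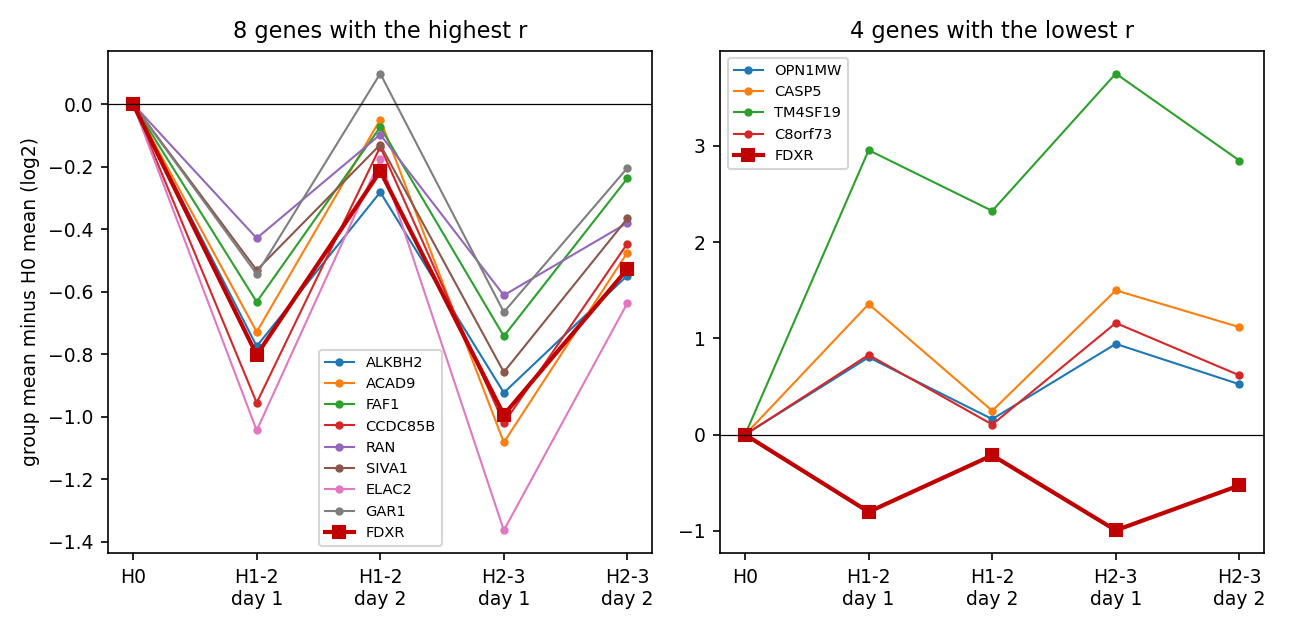
Group mean minus H0 mean (y axis, log2) of FDXR, the thick line, with the 8 genes of highest r over 23 arrays (left) and the 4 of lowest r (right), by group on the x axis. On the left every line is lowest in H2-3 on day 1, where FDXR is at -0.99. On the right TM4SF19 reaches 3.75, with 3 of 5 H0 arrays well above background.

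The direction of the FDXR differences did not depend on how the arrays were scaled. Over the other background correction, normalizations, probe filters, blocks and weights tried, FDXR against H0 ran from -1.42 to -0.68 in H1-2 on day 1, from -0.28 to -0.15 in H1-2 on day 2, from -1.52 to -0.89 in H2-3 on day 1 and from -0.71 to -0.39 in H2-3 on day 2. In the authors' deposited value table, which holds log2 values of the same arrays, it was likewise below 0 in all 4. There it was -0.94 and -0.28 in H1-2 and -1.18 and -0.71 in H2-3 on days 1 and 2. Quantile normalization gave nearly the same values, so the deposited values add little beside that setting. The category difference stayed between -0.30 and -0.11 on day 1 and between -0.42 and -0.11 on day 2, and passed under none of these settings.

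**Figure D5:**
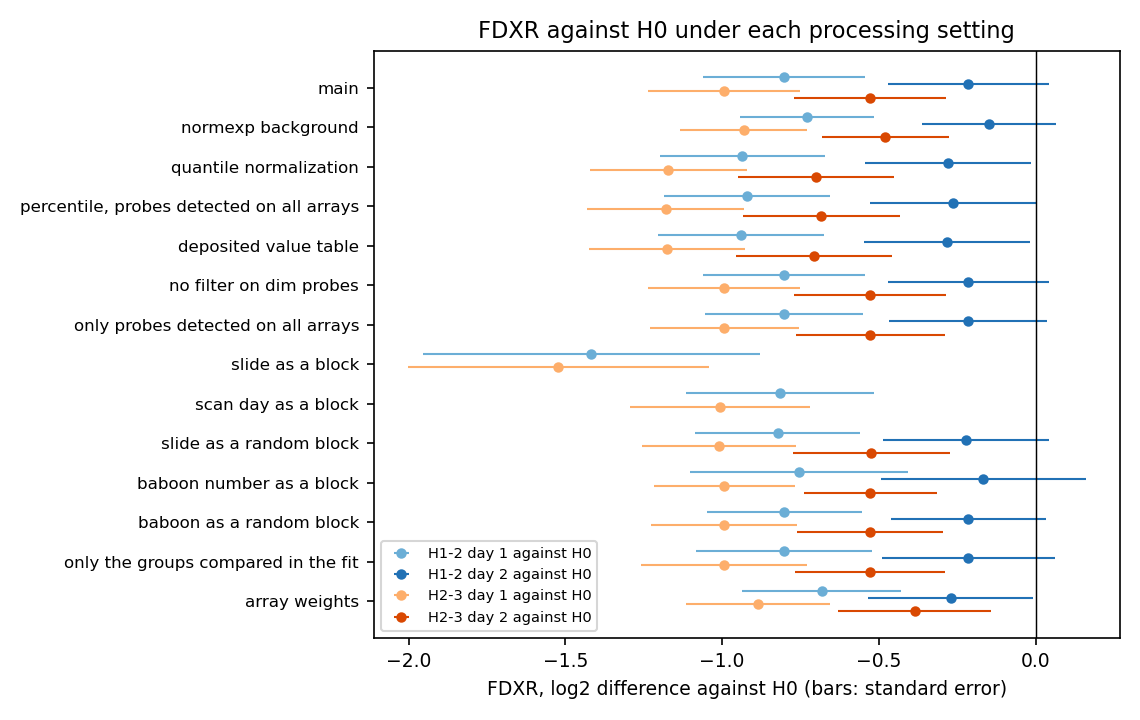
FDXR difference from H0 (x axis, log2, bars are standard errors) under each processing setting (y axis), coloured by category and day. Every point lies left of 0, and the widest departure is with slide as a block, at -1.42 and -1.52 on day 1.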

How the data were processed

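Total RNA from PAXgene whole blood (100 ng per sample) was labelled with Cy3 and hybridised to human arrays, per the labels. The authors deposited scanner files of background-subtracted spot intensity, read with Agilent Feature Extraction 10.7.3.1 per the submitters' processing notes, and a table of log2 values of the same arrays, used as an alternative. Its scale and direction were checked against the scanner files (r = 0.998 to 1.00 for 39637 matched probes). All of its columns had the same median, 4.703, and the step that set it is not known.

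From the intensity, log2 of the processed signal minus each array's 75th percentile was computed. Probes well above background on at least 4 arrays were kept (27215), and the brightest probe stood for a gene (21130 genes). Between 41.4% and 51.3% of probes were well above background per array, and arrays correlated at 0.867 to 0.981. One limma 3.58.1 fit (R 4.3.3) of 5 group means gave differences, standard errors and p-values adjusted by Benjamini-Hochberg over all genes, with exact permutation tests over animals beside it. On simulated data for H2-3 on day 1 against H0 (21130 genes), it called 91 of 100 genes changed by 2 on the log2 scale, 38 of 100 changed by 1, and 8 unchanged genes. In the simulation only those genes changed and the noise was independent between genes and arrays. The real comparison had many more genes called, so these rates need not hold for it. The number of arrays limits the precision.

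Within a category the titles give the same baboon numbers on both days, and this numbering alone is the basis for the pairing. Same-numbered deviations from the group means correlated at 0.05 to 0.44, and 4 of 9 day pairs correlated best with their own number (0 of 4 in H1-2, where the highest correlation with another baboon was 0.41 to 0.62). In H1-2, baboons that shared a slide on day 1 also shared one on day 2, so slide and animal are mixed in these values. Replicates are separate animals.

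Genes named besides FDXR were chosen by rule: p53 targets used beside FDXR, its ferredoxins, core iron genes, the 2 members of each list that varied most between groups, neighbours within 200 kb and the genes of most like pattern; other list members are named as examples. Among the genes the rule covers, 1 is not reported here. The members and lists were chosen with earlier results of these data known. A planned test of the FDXR day change is not given, since the day 1 values had served to choose the gene. A probe not well above background has only a bound there.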

Additional observations from a re-analysis of the deposited data

Results flagged for a closer look

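Among 69 named genes in 5 groups, 345 groups of 4 or 5 arrays were searched for a single array that stood apart from the rest of its group, and 21 were found, where chance flags about 1 in 20. No group of FDXR was among them. Levels are log2 relative to the array's 75th percentile.

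Baboon 3 of H0, the H0 animal with the lowest FDXR, stood apart in CDKN1A at -1.67 (the next array at -3.17), in AEN at -5.13, where its spot was not well above background, and in the NK cell marker KLRD1 at 2.39, and baboon 1 of H0 in CD300LF at 0.65. Baboon 1 of H1-2 on day 1, the lowest FDXR array of its group, was also apart on the low side in 3 genes of like pattern, RAN at 4.42, SIVA1 at 2.90 and SSR4P1 at -3.66 (not well above background on that array). In H2-3 on day 1, baboon 5, which had the highest FDXR of its group, was apart on the high side in ACAD9 at 0.50 and CCDC85B at 2.27. RAN, SIVA1, SSR4P1, ACAD9 and CCDC85B were chosen for their r with FDXR over these same arrays. That they follow FDXR in these 2 baboons is part of that choice, and nothing is read from it.

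In H2-3 on day 2, baboon 2 was low in CDKN1A at -2.19 and MDM2 at 2.47, baboon 1 low in TFRC at -0.62 and high in CD177 at 5.25, baboon 4 low in MTRR at -1.67 and baboon 3 low in LILRB2 at 5.14. On day 1, baboon 1 of H2-3 was low in EPB42 at 4.01. The COX15 signal of baboon 3 stood apart at -4.89, but COX15 was not well above background on any of the 5 arrays, so this is no level of the animal. In H1-2, FTH1 was low in baboon 3 on day 1 at 10.46 and in baboon 4 on day 2 at 10.17, SLC9A3R1 was low in baboon 4 on day 1 at 5.02, and FADS6 was low in baboon 3 on day 2 at -1.45.

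The iron-sulfur scaffold gene ISCU was lower on day 2 in all 4 H1-2 baboons (mean change -0.17) and higher in all 5 H2-3 baboons (mean change 0.47), a mean of 0.19 over the 9. limma's test of the difference between the changes, 0.64 ± 0.39 (SE), did not pass (adjusted p = 1.00). That fit does not pair the days of a baboon.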

How the results depend on the processing

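Of 91 alternative values of FDXR results with a test, 89 kept their direction and their side of the threshold and 2 reversed. Of 145 with no test, all kept their direction and 2 moved by more than the SD of H0. Of 90 counts of p53-responsive genes, 71 stayed within 1.5 times the reported count and 19 did not. Slide as a block moved FDXR against H0 on day 1 to -1.42 in H1-2 and -1.52 in H2-3, by its construction through the 2 arrays of slide 3. The FDXR day change in H2-3 minus that in H1-2 turned to 0.088 with array weights, and ran from -0.26 to 0.086 with 1 array left out at a time, 0.086 being without baboon 1 of H1-2 on day 1.

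The number of p53-responsive genes that rose in H1-2 on day 1, 3, became 1 with normexp background correction, quantile normalization, scaling on the probes that all arrays detected, the deposited value table, no filter on dim probes or only the groups compared in the fit. It became 0 with slide or scan day as a block or without the arrays of slide 3, and ran from 0 to 4 with 1 array left out. In H1-2 on day 2 the number, 0, became 2 with array weights and ran from 0 to 1 with 1 array left out. For H2-3 on day 1 the number, 16, became 2 with slide as a block. With 1 array left out it ran from 11 to 16 in H2-3 on day 1 and from 9 to 18 on day 2.

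With the baboon number as a fixed replicate block, FDXR against H0 was -0.76 in H1-2 and -0.99 in H2-3 on day 1, the category difference was -0.30 on day 1, and the number of p53-responsive genes that rose in H1-2 on day 1 was 0. H0 shares only a number with the other groups. Baboon as a random block left each FDXR difference as it was.

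Comparisons of day 2 with H0 and of day 2 with day 1 could not be fitted with slide or scan day as a fixed block. Other FDXR probes were not tried, since the array has 1. The random slide block and the analysis without slide 3 were chosen after seeing the data. All FDXR values rest on 1 human probe.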
